A study of Mus musculus with 8 samples.

Results

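The 9 genes described here encode proteins that neutrophils store in granules or carry in bulk in the cytosol: S100a8, S100a9, Ngp, Camp, Ltf, Mmp8, Mmp9, Elane and Mpo. They were taken by symbol from the deposited expression table, in which each of the 9 had 1 row among 37447 genes. The table holds RNA sequencing of microglia (macrophages that live in brain, spinal cord, retina and optic nerve), flow sorted from the optic nerves of C57BL/6 mice at 3 months of age. The 4 FF libraries came from mice with floxed Nf1 alleles (Nf1 flox/flox). The 4 FFC libraries came from mice with the same floxed alleles and Cre under the GFAP promoter (Nf1 flox/flox; GFAP-Cre), which deletes Nf1 in astrocytes and in other cells where that promoter is or was active. Both groups therefore carry the floxed alleles, and only FFC carries Cre. Each group held 2 libraries from females (replicates 1 and 4) and 2 from males (replicates 2 and 3). The labels call the libraries biological replicates. How many animals went into a library, and which markers the sort used, is not stated in those labels, so p-values measure the spread between these libraries. Below, 4 values for a genotype are in the order of replicates 1 to 4.

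Neutrophils are short-lived phagocytes of the blood that are made in the bone marrow and are scarce in healthy nervous tissue. They pack their granules in waves as they mature: azurophil granules with myeloperoxidase and serine proteases in promyelocytes, then specific granules with lactoferrin and cathelicidin, then gelatinase granules. The granule transcripts are made mainly in the marrow and are largely shut off in mature blood neutrophils, while S100a8 and S100a9 stay abundant there. Microglia are not known as a major source of these transcripts, so the genes serve as a sign of neutrophils, or of their RNA, among sorted cells. S100a8, S100a9 and Mmp9 can also be expressed by monocytes and activated macrophages.

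The label of microglia was checked against marker genes. All 14 genes of a microglia marker list were above 1 FPKM in all 8 libraries, and Csf1r, a growth factor receptor on which microglia depend, lay between 379 and 1062 FPKM. Ctss and C1qa, other abundant microglial transcripts, were at 609 to 2265 and 60.7 to 999.8 FPKM. FPKM counts sequenced fragments relative to transcript length and library size, so levels can be compared between genes, but the depth behind a value is unknown. Between 11964 and 14146 genes per library were above 1 FPKM. Over genes averaging 1 FPKM or more, each library was rank-correlated (Spearman) with every other. The median was lowest for FF 2 (0.398) and FF 4 (0.464) and lay between 0.507 and 0.597 for the remaining libraries.

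The most abundant of the 9 genes varied over orders of magnitude between libraries of 1 genotype. S100a8, S100a9, Camp and Ngp were readily measured in most FF libraries and in both male FFC libraries, and they were at or near 0 in the female libraries FFC 1 and FFC 4, apart from low S100a9. Mmp9 was instead highest in FFC 4. Elane and Mpo were close to 0 almost throughout. None of the 9 genes separated FFC from FF. As these are bulk libraries, fewer cells of a type and less RNA per cell cannot be told apart.

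**Figure D1:**
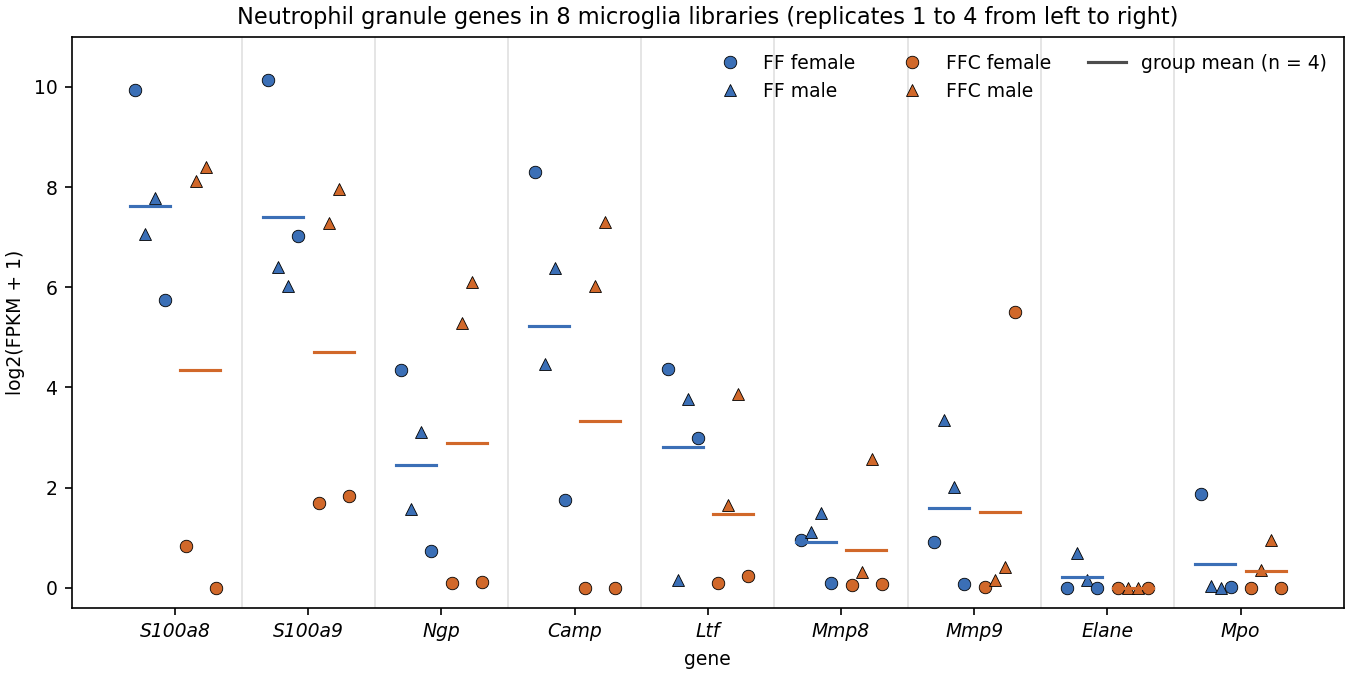
Level of each gene in each library as log2(FPKM + 1), with FF in blue, FFC in orange, females as circles, males as triangles and group means as lines (n = 4). The female FFC libraries sit near 0 for S100a8, Ngp and Camp, where the male FFC libraries reach 278 and 337 FPKM of S100a8, and FFC 4 stands highest for Mmp9.

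S100a8 and S100a9 are calcium-binding proteins that pair to form calprotectin, which binds zinc and manganese and makes up a large share of neutrophil cytosolic protein. S100a8 (ENSMUSG00000056054) spans bases 90472993 to 90473956 of chromosome 3 in mm9, the build of all gene positions given here. The FF libraries held 975, 133, 218 and 52.9 FPKM of S100a8, the FFC libraries 0.785, 278, 337 and 0. The FF libraries and the male FFC libraries overlapped, and the other two FFC libraries lay below every FF library. In FF 1, S100a8 was above 99.4% of the 17753 tested genes (those averaging 1 FPKM or more), in FFC 3 above 99.0%, and in FFC 1 above 34.4%.

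S100a9 (ENSMUSG00000056071, chromosome 3, 90496554 to 90499643) lies 22.6 kb from S100a8. Its FPKM were 1126, 83.2, 64.3 and 129.8 among FF libraries, against 2.25, 156, 248 and 2.58 among FFC libraries. The split was that of S100a8, except that no library was at 0 and FFC 1 and FFC 4 held a low level. The ratio of S100a8 to S100a9 was 0.408 in FF 4, 0.866 in FF 1, 1.36 in FFC 3, 1.60 in FF 2, 1.78 in FFC 2 and 3.38 in FF 3, the libraries in which both exceeded 1 FPKM. In FFC 1 and FFC 4 both were low and S100a8 was below S100a9, so that S100a9 was the more abundant transcript in FF 1, FF 4, FFC 1 and FFC 4.

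The specific granule genes Ngp, Camp and Ltf lie on 1 stretch of chromosome 9, with 1195 kb from the start of Camp to the end of Ltf. Camp (ENSMUSG00000038357, chromosome 9, 109749889 to 109751970) encodes the cathelicidin antimicrobial peptide. Camp reached 314, 21.2, 82.3 and 2.39 FPKM with the FF genotype, and 0, 63.8, 156 and 0 with FFC. Its levels spanned the widest range after S100a8 and S100a9, and its 2 zeros were in the libraries where S100a8 was lowest.

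Ngp (ENSMUSG00000032484, chromosome 9, 110322254 to 110325514) encodes neutrophilic granule protein, a relative of cathelicidins. Without Cre its level was 19.5, 1.98, 7.68 and 0.654 FPKM, and with Cre 0.0634, 38.2, 68.0 and 0.0791 FPKM. Unlike Camp and the S100 genes, Ngp was highest in the male FFC libraries, both above every FF library.

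Ltf (ENSMUSG00000032496, chromosome 9, 110921796 to 110945270) encodes lactoferrin, an iron-binding protein that starves bacteria of iron. FF libraries contained 19.7, 0.111, 12.7 and 6.92 FPKM of it, FFC libraries 0.0712, 2.14, 13.6 and 0.175. Here FF 2 joined FFC 1 and FFC 4 at the bottom, although FF 2 had 133 FPKM of S100a8.

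The metalloproteinases behaved unlike each other. Mmp8 (ENSMUSG00000005800, chromosome 9, 7558429 to 7568486) is the neutrophil collagenase stored in specific granules. Its level was 0.934, 1.17, 1.80 and 0.0714 FPKM for FF, 0.0384, 0.244, 4.93 and 0.0532 for FFC. It exceeded 1 FPKM in 3 libraries and was highest in FFC 3. Mmp9 (ENSMUSG00000017737, chromosome 2, 164766280 to 164781350) is gelatinase B of the gelatinase granules. FF libraries gave 0.896, 9.24, 3.06 and 0.0544 FPKM of Mmp9, FFC libraries 0.0119, 0.108, 0.326 and 44.6. Its highest value was that of FFC 4, where S100a8 and Camp were at 0, and both male FFC libraries had little of it.

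The azurophil granule genes were the lowest. Elane (ENSMUSG00000020125, chromosome 10, 79349057 to 79350961), neutrophil elastase, was listed at 0 in 6 libraries and had 0.628 FPKM in FF 2 and 0.117 FPKM in FF 3. Its neighbour Prtn3 (proteinase 3), whose gene ends 3.14 kb before Elane begins, had 2.52 FPKM in FF 1 and 2.34 FPKM in FFC 1 and at most 0.519 FPKM in any other library. Mpo (ENSMUSG00000009350, chromosome 11, 87607083 to 87617915) is myeloperoxidase, which makes hypochlorous acid. It was listed at 2.66, 0.0296, 0 and 0.0175 FPKM for FF, 0, 0.285, 0.924 and 0 for FFC. Elane and Mpo stayed under the mean of 1 FPKM required for the test across genes, and the other 7 passed it.

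The promoter windows of the 4 genes with the shared split are printed because their levels were alike across libraries (values of r below). They run from 250 bases before to 50 after the annotated start in RefSeq (GRCm38.p6), 5′ to 3′ on the gene's strand. RefSeq windows were matched for 8 of the 9 genes. Capitals mark matches on either strand to the core recognised by C/EBP factors (TTNNGNAA), the core recognised by PU.1 (GAGGAA) and a TATA box (TATAAA). C/EBP-epsilon is known to drive specific granule genes and PU.1 is a master regulator of myeloid cells.
S100a8, chr3:90668821-90669120, plus strand: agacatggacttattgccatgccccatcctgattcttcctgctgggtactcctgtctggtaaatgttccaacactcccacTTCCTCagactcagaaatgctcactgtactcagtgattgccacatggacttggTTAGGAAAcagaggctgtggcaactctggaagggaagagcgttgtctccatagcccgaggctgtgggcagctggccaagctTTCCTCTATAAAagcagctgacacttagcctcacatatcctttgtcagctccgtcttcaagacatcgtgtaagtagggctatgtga
S100a9, chr3:90695672-90695971, minus strand: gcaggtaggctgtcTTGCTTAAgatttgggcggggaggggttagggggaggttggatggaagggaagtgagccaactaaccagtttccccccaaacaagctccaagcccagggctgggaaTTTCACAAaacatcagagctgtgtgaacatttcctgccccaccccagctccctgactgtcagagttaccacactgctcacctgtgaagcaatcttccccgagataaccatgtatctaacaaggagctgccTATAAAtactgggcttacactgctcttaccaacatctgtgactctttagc
Ngp, chr9:110419558-110419857, plus strand: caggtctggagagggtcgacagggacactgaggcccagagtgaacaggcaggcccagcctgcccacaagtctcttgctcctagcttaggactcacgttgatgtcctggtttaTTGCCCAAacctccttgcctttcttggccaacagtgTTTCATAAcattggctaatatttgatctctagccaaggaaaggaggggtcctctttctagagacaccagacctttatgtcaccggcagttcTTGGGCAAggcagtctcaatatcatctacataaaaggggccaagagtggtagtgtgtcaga
Camp, chr9:109849407-109849706, minus strand: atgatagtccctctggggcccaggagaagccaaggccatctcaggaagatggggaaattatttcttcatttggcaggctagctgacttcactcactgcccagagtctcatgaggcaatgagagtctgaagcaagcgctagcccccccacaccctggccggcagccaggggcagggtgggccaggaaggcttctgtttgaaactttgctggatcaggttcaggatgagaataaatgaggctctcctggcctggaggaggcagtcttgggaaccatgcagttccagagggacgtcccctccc
The S100a8 window held 1 C/EBP core, 2 PU.1 cores and 1 TATA box, and the second PU.1 core runs directly into the TATA box. S100a9 held 2 C/EBP cores and 1 TATA box, Ngp held 3 C/EBP cores, and Camp held no match to any of the 3 motifs. Of the 8 windows, 5 held a C/EBP core, 5 a PU.1 core and 3 a TATA box, against 40.7%, 28.3% and 13.6% of 32851 promoter windows of the same length. The TATA box letters began at -30 in S100a8, at the annotated start (+1) in S100a9 and at -3 on the opposite strand in Mmp8. Position was not part of the search. These matches describe letters in a window and no binding was measured.

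The comparison of FFC with FF asks which microglial transcripts differ when astrocytes lack Nf1. On the log2(FPKM + 1) scale, where changes of low genes are understated, S100a8 had a mean difference, FFC minus FF, of -3.29 ± 1.71 (SE, 4 against 4 libraries; limma adjusted p = 0.759). The other differences were -2.70 ± 1.40 for S100a9, -1.90 ± 1.71 for Camp, -1.36 ± 1.12 for Ltf, -0.16 ± 0.79 for Mmp8, -0.074 ± 1.24 for Mmp9 and 0.46 ± 1.40 for Ngp. Their limma adjusted p-values lay between 0.759 and 0.990. The difference was -0.22 for Elane and -0.16 for Mpo, which had no limma test. Permuting genotype over the libraries (exact, two-sided, 70 arrangements) gave p between 0.286 (S100a9) and 0.971 (Mmp9), and 0.771 to 0.971 after adjustment over the 9 genes.

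The mean on this log scale was lower in FFC for 8 of the 9 genes and higher for Ngp, and all 9 overlapped between the genotypes. On the FPKM scale, where 1 high library weighs more, Mmp8 (0.993 in FF, 1.32 in FFC) and Mmp9 (3.31 and 11.3) had higher means in FFC as well. The median difference of the 7 tested genes was -1.36, against 0.19 over all 17753. With Elane and Mpo included the median of the 9 was -0.22, which is the value of Elane, a gene at 0 in 6 libraries. Both medians describe genes chosen with these data known and have no test. Limma called 0 of the 7 members it tested and 0% of all tested genes. At an unadjusted limma p under 0.05 it had 0 of the 7 tested members, against 6.46% of all genes (1.94% lower and 4.52% higher in FFC). Over all genes, 1.29% had every FFC value below every FF value and 3.05% had the reverse, and 43.3% had a lower mean in FFC. Upper-quartile and quantile scaling took the median of all genes from 0.19 to 0.053 and 0.071, and that of the 9 genes from -0.22 to -0.23 and -0.32.

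The leading genes differed widely between libraries. The SD over the 8 libraries was 3.64 for S100a8, 3.29 for Camp, 2.92 for S100a9 and 2.39 for Ngp on the log2(FPKM + 1) scale. Only 0.896% of tested genes had a larger SD than S100a8, 1.43% than Camp, 2.32% than S100a9 and 5.42% than Ngp. Among the 1759 genes with a mean log2 of at least 5, whose median SD was 0.95, 20 had a larger SD than S100a8 and 33 a larger SD than S100a9. Mmp8 was ordinary, with 82.3% of tested genes above its SD of 0.89.

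**Figure D2:**
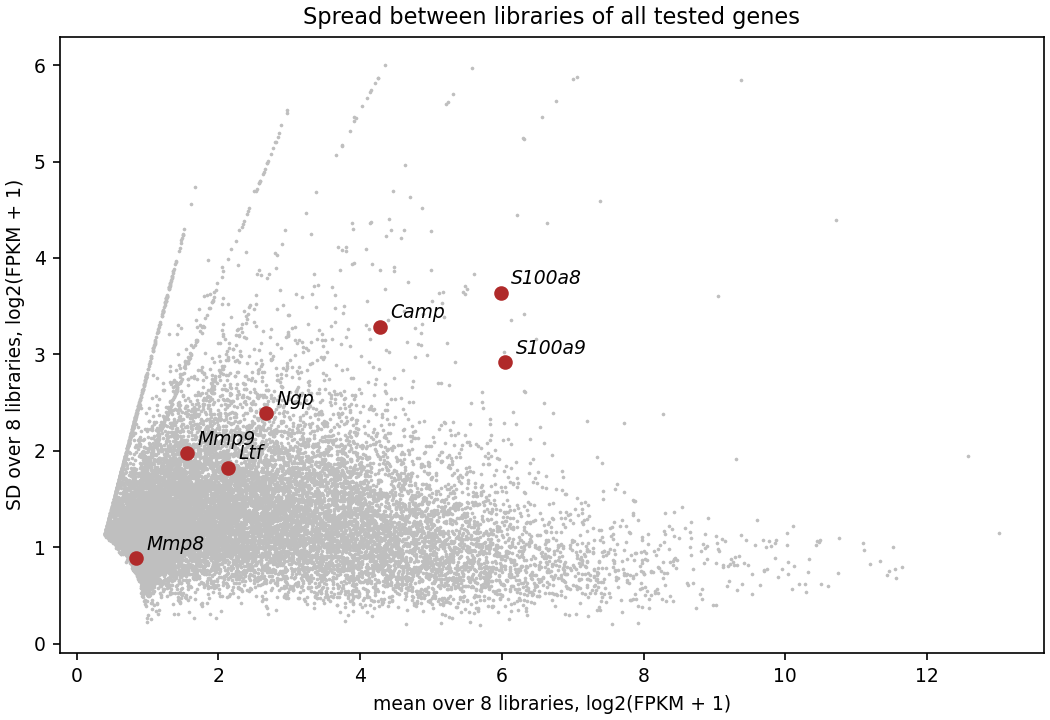
Spread of each tested gene between the 8 libraries (SD of log2(FPKM + 1), vertical axis) against its mean on the same scale (horizontal axis), with the 7 tested neutrophil granule genes in red. S100a8 and S100a9, at SDs of 3.64 and 2.92, stand above nearly all genes of like mean, and Mmp8, at 0.89, has a smaller SD than most.

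Within FFC, the low and high values of S100a8, S100a9, Camp and Ngp fell along sex, with 2 libraries per sex. This split was picked from the genes' own values, and its share over all genes was not computed. These genes also moved together across the 8 libraries (Pearson's r from 0.747 to 0.956), so they are not separate cases of it. The within-group SD of S100a8 was 4.54 in FFC and 1.75 in FF, that of S100a9 3.39 and 1.87, that of Camp 3.88 and 2.79 and that of Ngp 3.25 and 1.61. Whether the spread itself differed by genotype was not tested. Both female FFC libraries were low and both male FFC libraries high, whereas in FF the lowest and the highest S100a8 values were both from females (FF 4 and FF 1). Among females the difference between FFC and FF was -7.42 for S100a8, -6.81 for S100a9, -5.03 for Camp, -3.51 for Ltf and -2.44 for Ngp. Among males it was 0.84, 1.41, 1.23, 0.80 and 3.35 in the same order. By the months in the sample titles (below), both male FF samples carry November and both male FFC samples December. Genotype and title month therefore cannot be told apart among males. For Mmp9 the differences were 2.26 among females and -2.41 among males. The female value rested on FFC 4 alone (44.6 FPKM), since FFC 1, at 0.0119 FPKM, lay below both female FF libraries and was the lowest of all 8.

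For S100a8, S100a9 and Ngp the female FFC libraries lay below both female FF libraries and the male FFC libraries above both male FF libraries. Over all tested genes 1.93% had that arrangement, and 3.35% had it or its reverse. The arrangement was picked from these genes' own values, so nothing is read from that count. The difference between the sexes in the genotype effect (limma interaction term, chosen after the values were seen) was 8.23 ± 1.51 for S100a9 (SE; adjusted p = 0.785) and 8.27 ± 1.76 for S100a8 (adjusted p = 1.00), with 2 libraries per sex and genotype. It was 5.80 ± 1.94 for Ngp and 6.26 ± 2.50 for Camp. Limma called 0 of 17753 genes for this term, and 567 (3.19%) had an unadjusted p under 0.05, S100a8, S100a9, Ngp and Camp among them. A difference between the sexes thus did not pass the test for any of the 7 tested genes. The male part of this term also sets December titles against November titles.

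**Figure D3:**
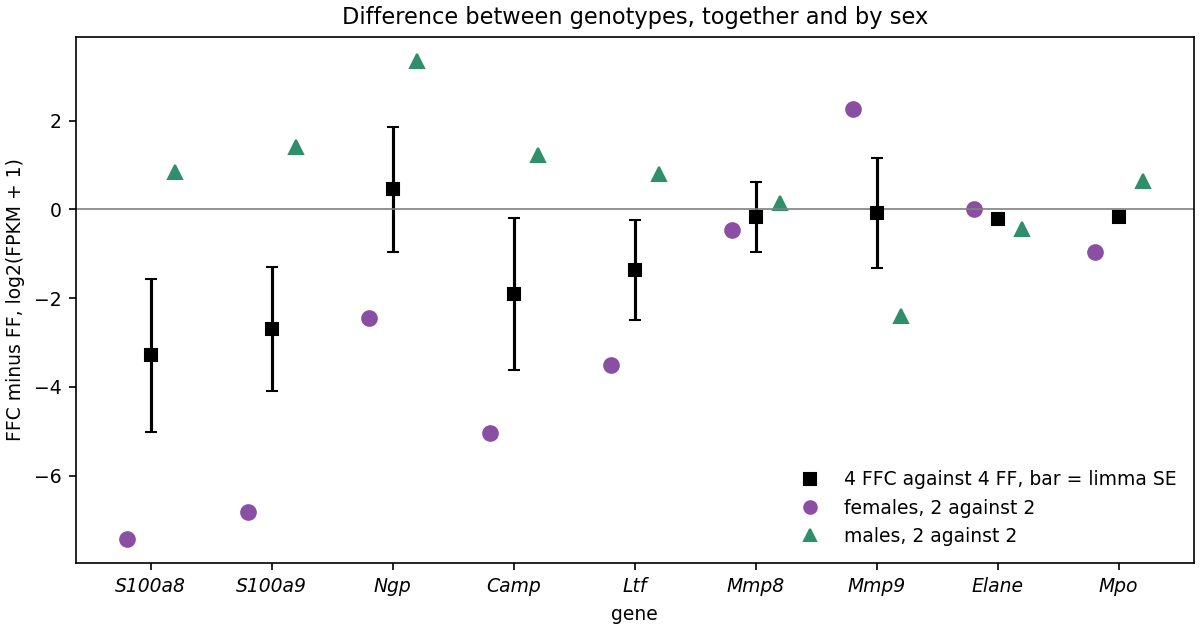
Difference between FFC and FF in mean log2(FPKM + 1) for each gene, with all 8 libraries (black squares, bars are the limma SE; Elane and Mpo have none), females only (purple circles) and males only (green triangles, 2 against 2 libraries each). S100a8 runs from -7.42 in females to 0.84 in males, and Mmp9 from 2.26 to -2.41, its female value resting on FFC 4. Among males, genotype and the month in the sample titles cannot be told apart.

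The titles of the samples begin with what reads as a date, with 3 FF and 1 FFC title in November and 1 FF and 3 FFC titles in December. The labels do not say what is dated. Within November, S100a8 differed by -7.42 (FFC 1 against 3 FF libraries), and within December by -0.24 (3 FFC libraries against FF 4). FFC 1 and FF 4 are female, and each was compared with a female and both male libraries of the other genotype. The differences within a month therefore also hold sex. The sign was also the same in both months for S100a9 (-5.82 and -1.33) and Ltf (-2.67 and -1.07). It turned for Camp (-6.38 and 2.68), Ngp (-2.93 and 3.11), Mmp8 (-1.13 and 0.89) and Mmp9 (-2.08 and 1.95). FFC 1 and FFC 4, the libraries lowest in S100a8, S100a9, Camp and Ngp, fall in different months, and FFC 4 was highest in Mmp9. The part of month in these levels was not tested.

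FFC 1 and FFC 4 were the lowest 2 of the 8 libraries for S100a8, S100a9, Ngp, Camp and Mmp8, and for 3.26% of all tested genes. The pair was singled out from these genes' own values, so nothing is read from that count. The same libraries were not poor in microglial RNA. They had 607 and 1062 FPKM of Csf1r, and the summed level of the 14 microglia markers was 5602 and 9370 FPKM, against 2447 to 7346 in FF. The FPKM of all genes summed to 525184 in FFC 1 and 651231 in FFC 4, against 367760 (FF 4) to 700291 (FF 1) in FF. Sums given in FPKM are not scaled to these totals. The 9 genes together summed to 3.22 FPKM in FFC 1 and 47.5 in FFC 4, of which Mmp9 was 44.6. The sum was 193 to 2458 FPKM in FF and 538 and 829 in FFC 2 and FFC 3. In FF 1 it was 0.351% of the summed FPKM of all genes.

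Other neutrophil genes did not share 1 pattern. In a list of 26 genes of the neutrophil surface and cytosol, 22 were tested and 0 were called in either direction, with 10 higher and 12 lower in FFC by mean (median -0.18). Csf3r, the receptor for the growth factor G-CSF, had 84.5 to 181 FPKM in FF and 183 to 287 in FFC, and the integrin Itgam had 105 to 369 and 284 to 329. Both are also expressed by microglia, and neither was reduced in FFC 1 or FFC 4. Grina had 28.6 to 153 FPKM in FF and 98.9 to 149 in FFC, and the myeloid receptor Clec5a 6.21 to 66.8 and 34.0 to 98.6. Retnlg, a resistin-like protein of neutrophils, had 348 FPKM in FF 1 and at most 1.24 FPKM in the other 7 libraries. Fpr1 and G0s2 were highest in FFC 4, at 29.9 and 30.5 FPKM, whereas Retnlg, Cxcr1 and Asprv1 were at 0 there. Chi3l3, of the specific and tertiary granule list, lacked values in some libraries. It had 876 FPKM in FFC 4 and at most 35.8 FPKM where listed elsewhere.

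Ly6g, the surface antigen by which mouse neutrophils are usually identified, was listed at 0 in all 4 FF libraries and in FFC 1. It had 16.8, 132 and 60.8 FPKM in FFC 2, FFC 3 and FFC 4 (limma adjusted p = 0.651). It was thus at 0 in FF 1, the library richest in S100a8, and present in FFC 4, where S100a8 was at 0. Ly6g belongs to a cluster of similar genes, between which reads may have been credited wrongly. Cxcr2, the receptor that draws neutrophils to chemokines, was between 0.664 and 10.2 FPKM in FF and between 0.924 and 10.8 FPKM in FFC. Of the defining neutrophil genes Ly6g, Cxcr2, Csf3r, Retnlg, Mmp8 and Ngp, 4, 4, 4 and 1 exceeded 1 FPKM among the FF libraries, against 3, 5, 4 and 3 among the FFC libraries. Without Csf3r they summed to 1.52 to 379 FPKM in FF and 4.53 to 207 FPKM in FFC.

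**Figure D4:**
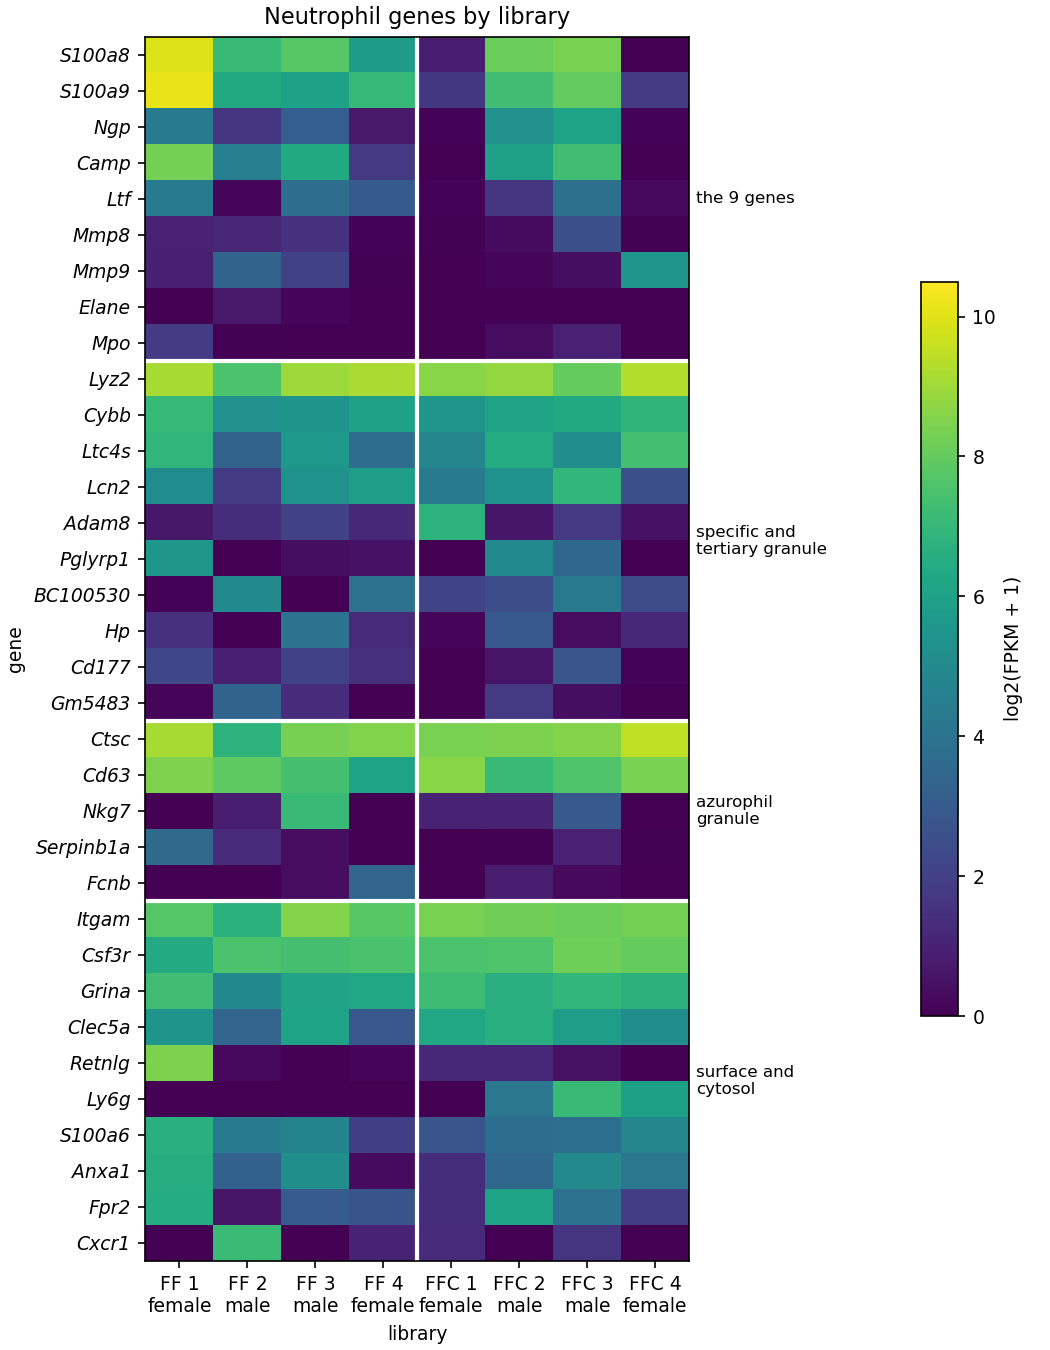
Level of neutrophil genes (rows) in each library (columns) as log2(FPKM + 1) by colour, with the 9 genes on top and then, from 3 lists, up to 10 genes with the highest mean (at least 1 FPKM). Lyz2, Ctsc, Itgam and Csf3r are high in all 8 libraries, whereas S100a8, S100a9 and Camp are dark in FFC 1 and FFC 4, and Retnlg is bright in FF 1.

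Among 21 other specific and tertiary granule genes, 13 were tested and 0 were called, with 7 higher and 6 lower in FFC (median 0.23). Lysozyme (Lyz2), an antibacterial enzyme that microglia make as well, had 182 to 573 FPKM in FF and 260 to 631 FPKM in FFC. Lcn2, which binds bacterial siderophores, gave 33.5, 2.49, 39.5 and 57.8 FPKM for FF against 18.8, 40.1, 123 and 4.98 for FFC. Lcn2 was thus still present in FFC 1, where Camp was at 0. The peptidoglycan-binding protein Pglyrp1 gave 45.8, 0, 0.303 and 0.434 FPKM for FF against 0, 31.7, 10.8 and 0 for FFC. It exceeded 1 FPKM in FF 1, FFC 2 and FFC 3, the libraries with the highest S100a8, and was at 0 in FFC 1 and FFC 4. The catalytic oxidase subunit Cybb had 38.7 to 132 FPKM in FF and 43.4 to 115 in FFC. The leukotriene enzyme Ltc4s had 9.07 to 120 and 26.9 to 164, and the protease Adam8 had at most 3.11 FPKM except for 111 in FFC 1.

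Among 11 azurophil granule genes besides Elane and Mpo, 5 were tested and 0 were called (2 higher and 3 lower, median -0.68). Ctsc, the protease that activates elastase and its relatives, had 111 to 562 FPKM in FF and 337 to 712 FPKM in FFC, and it is widely expressed in macrophages. Serpinb1a, an inhibitor of neutrophil serine proteases, had 11.5 FPKM in FF 1 and at most 1.45 FPKM elsewhere. Cd63, a membrane protein of azurophil granules and of lysosomes in many cells, had 66.8 to 355 FPKM in FF and 137 to 395 in FFC. Nkg7, also a gene of cytotoxic lymphocytes, had 135 FPKM in FF 3 and at most 6.63 FPKM elsewhere, and the ficolin Fcnb had 9.73 FPKM in FF 4 and at most 0.777 FPKM elsewhere.

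Transcripts of proteins that receive, activate or restrain the products of the 9 genes formed a further list. Of 22 such genes 16 were tested and 0 were called (9 higher and 7 lower, median 0.24). Tlr4, a receptor through which calprotectin acts, had 29.5 to 81.1 FPKM in FF and 28.8 to 137 FPKM in FFC, and basigin (Bsg), another S100a9 receptor, had 30.6 to 110 and 93.5 to 165. Timp2, an inhibitor of metalloproteinases, had 10.6 to 69.2 FPKM in FF and 67.9 to 209 FPKM in FFC (log2 difference 1.89; limma adjusted p = 0.712). Lrp1, an endocytic receptor that clears protease and inhibitor complexes, had 33.1 to 326 and 99.3 to 154.

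Regulators of neutrophil production gave 0 calls among 9 tested of 17 (5 higher and 4 lower, median 0.041). Sfpi1, the gene of PU.1, had 59.1 to 190 FPKM in FF and 90.7 to 317 FPKM in FFC, and is a factor that microglia also need. Runx1 had 9.94 to 65.9 and 19.2 to 84.8. Cebpa had 4.02 to 17.1 and 5.91 to 43.4, and Cebpd had 10.3 to 45.7 and 5.92 to 73.6. Cebpe, the factor of the specific granule stage, was at 3.24 FPKM in FFC 2 and at most 0.348 FPKM elsewhere.

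Markers of other blood cells varied across the same libraries, and their part in the levels of the 9 genes was not tested. The 12 erythroid markers summed to 252 FPKM in FF 1, the library richest in S100a8, S100a9 and Camp, and to 68.1 to 86.5 FPKM in the other FF libraries. The sums for FFC were 52.3, 80.1, 35.2 and 66.3 FPKM, so FFC 3, rich in Camp and Ngp, had the lowest sum. The beta-globin gene Hbb-b1 was at 103 FPKM in FF 1 and between 6.20 and 32.1 FPKM elsewhere. Hba-a1, Hba-a2 and Hbb-b2, the other globin genes of the list, were likewise highest in FF 1, at 36.9, 51.5 and 34.1 FPKM. Globin genes are near-identical copies, so a read may have been credited to the wrong one.

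Of 12 monocyte markers with values in every library, the sum was 62.9 to 148 FPKM in FF and 65.3 to 231 FPKM in FFC, highest in FFC 4. The monocyte chemokine receptor Ccr2 gave 45.6, 5.86, 20.1 and 19.1 FPKM for FF against 0.340, 55.2, 10.0 and 46.2 for FFC, low with S100a8 in FFC 1 and high without it in FFC 4. Fn1 ranged from 2.32 to 71.1 FPKM over the 8 libraries, Ms4a4c from 2.45 to 85.2 and the integrin Itga4 from 1.20 to 37.0. The monocyte antigen Ly6c2 was highest in FFC 1, at 11.97 FPKM, followed by FF 1 at 7.68 FPKM, and was at most 1.16 FPKM in the other 6 libraries. Markers of eosinophils, basophils and mast cells summed to 34.9 to 222 FPKM in FF and 32.5 to 142 FPKM in FFC. The eosinophil ribonuclease genes Ear6, Ear2 and Ear1 reached 135, 59.9 and 35.1 FPKM in single libraries, and Siglec5 had 2.02 to 69.5 FPKM. Of the monocyte markers 11 were tested and 0 were called (median 0.11), and of these granulocyte and mast cell markers 8 were tested and 0 were called (median -0.50).

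The relatives of the 9 genes gave 0 calls as well. Of 14 other S100 family genes, 9 were tested, with 2 higher and 7 lower in FFC (median -0.62). S100a11 was between 28.6 and 129 FPKM in all 8 libraries, S100a6 had 99.9 FPKM in FF 1 and 2.86 to 28.5 FPKM elsewhere, and S100a13 had 201 FPKM in FF 1 and 0.726 to 46.2 FPKM elsewhere. S100a4 gave 0.440 to 45.2 FPKM for FF against 0 to 62.5 for FFC. Of 21 other matrix metalloproteinases 10 were tested, with 2 higher and 8 lower (median -0.57). Mmp14, a membrane-bound protease that activates Mmp2, gave 4.57, 3.14, 25.8 and 0.802 FPKM for FF against 20.0, 14.5, 33.9 and 28.7 for FFC (limma adjusted p = 0.729). Mmp2, Mmp24 and Mmp11 ranged from 1.14 to 16.4, 0 to 30.2 and 0.0227 to 8.10 FPKM, so that 44.6 FPKM of Mmp9 in FFC 4 was above every value of these 4 relatives.

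Across the 8 libraries the 9 genes included a group that moved together and 2 that did not join it. As a description over 8 libraries that share preparation and scaling, Pearson's r of log2(FPKM + 1) was 0.956 between S100a8 and S100a9, 0.944 between S100a8 and Camp and 0.897 between Ngp and Camp. Mmp9 had a negative r with S100a8 (-0.415) and with Ngp (-0.416), and Elane had an r of at most 0.392 with any other of the 9. The genes most like the mean log2 level of the 7 tested members, among 7930 genes whose mean reached 5 FPKM, were the immunoglobulin segment Ighv1-81 (r = 0.971), the olfactory receptor Olfr1298 (0.950), Adck5 (0.910), Cytip (0.899) and Rhbdd2 (0.894). None of these 5 is a granule gene. Ighv1-81 gave 481, 39.2, 260.1 and 2.33 FPKM for FF against 0, 124, 504 and 0 for FFC, with zeros in the same 2 libraries as Camp. These values of r are the highest of 7930 and are given with no p.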

How the data were processed

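RNA of 8 sorted microglia libraries (4 FF, 4 FFC) was analysed from 1 gene table of FPKM values deposited by the authors. Tools listed in the submitters' processing notes, with no role or order, are Cufflinks 2.0.2, Bowtie2 2.0.0, TopHat2 2.0.4 and CASAVA 1.8.2, with build mm9; no annotation is named. Per the labels' protocols the cDNA was amplified (Ovation), whose effect on the levels was not tested. FPKM hold no counts, so depth is unknown, no counting interval was computed, and a listed 0 can be a failed estimate. Of 37447 genes, 447 lacked a value in some library and were left out. Starts in the table count from 0 (21680 gene lengths then equal those of the annotation used for comparison, against 420 otherwise) and are printed counted from 1.

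For genotype, a limma model (limma 3.58.1, R 4.3.3) was fitted to log2(FPKM + 1) of 17753 genes averaging 1 FPKM or more (trended empirical Bayes, two-sided, Benjamini-Hochberg over all of them, threshold 0.05), and exact permutation tests were run for single genes. Robust variances used statmod 1.5.0. Tables and plots were made in Python 3.11.15 (pandas 2.3.3, numpy 2.4.6, matplotlib 3.10.9, scipy 1.17.1). The fit was tested on simulated data with normal spread around the gene means and no lower limit. The many values near the floor in these genes were not simulated, so the power for them is unknown. Named genes were the 9, up to 6 genes of each other neutrophil list and up to 4 of each further list by highest mean FPKM, and the 5 most like the 9. Cxcr2 was named as a defining neutrophil gene. Tlr4, Cebpe, Ly6c2, Fpr1, G0s2, Chi3l3, Cxcr1 and Asprv1 were named after their values were seen. S100pbp, which is no S100 protein, was dropped from the S100 list after the results were seen. The members and lists were chosen with earlier results of these data known.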

Additional observations from a re-analysis of the deposited data

Results flagged for a closer look

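Single libraries stood apart for 3 of the 9 genes on the log2(FPKM + 1) scale, where the gap of an extreme value to its neighbour was divided by the range of its group of 4. Mmp9 in FFC 4 had a gap of 0.929 of the FFC range, at 44.6 FPKM. Mpo in FF 1 had 0.978, at 2.66 FPKM, and Mmp8 in FFC 3 had 0.896, at 4.93 FPKM. In all, 18 groups were looked at. The rule marks about 1 in 20 by chance when values are normally distributed. Levels near 0, such as those of Mpo, are not, so nothing is read from the number marked.

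S100a8, S100a9 and Ngp had genotype differences of opposite sign in the sexes, with both female FFC values below the female FF values and both male FFC values above the male FF values. The difference of the genotype effect, males minus females, was 8.27 for S100a8 (limma adjusted p = 1.00), 8.23 for S100a9 (limma adjusted p = 0.785) and 5.80 for Ngp (limma adjusted p = 1.00). None of these 3 passed the test of the difference over all 17753 genes. Among males, genotype and title month cannot be told apart, so the difference holds both. The arrangement was picked from the genes' own values, and 1.93% of all tested genes had it.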

How the results depend on the processing

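The alternatives were other pseudocounts (0.1 and 5), an expression filter left off or set at 5 FPKM, upper-quartile and quantile scaling, sex or month as a covariate, robust variances, leaving out each library or both FF 2 and FF 4, and, chosen after seeing the data, each sex or month alone. None of the 9 genes passed in any of them that gave a test (smallest limma adjusted p = 0.581, for S100a9 with month); a month alone leaves 1 library in a group and was not tested. Over all genes limma called 0 (1146 at an unadjusted p under 0.05), and 0 to 1 when a library was left out: Mir15a without FF 1 and SNORA65 without FFC 4. The median of the 9 genes was -2.44 in females and -2.67 in November, but 0.80 in males and 0.41 in December, and -0.79 to -0.22 when a library was left out. It was -0.995 with a pseudocount of 0.1, -0.076 with one of 5, -0.14 with month as a covariate and -0.84 without FF 2 and FF 4, against -0.22. With the replicate block, 0 genes were called (1014 at an unadjusted p under 0.05), and S100a8 had a limma adjusted p of 0.789. Deviations of same-numbered libraries correlated at -0.052 to 0.034, so the numbers were not taken to pair them, and the block changed no call.

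Directions turned as follows. In males S100a8 was 0.84, S100a9 1.41, Camp 1.23, Ltf 0.80, Mmp8 0.14 and Mpo 0.63. In December Camp was 2.68, Mmp8 0.89, Mmp9 1.95 and Mpo 0.41, and Mpo was 0.30 without FF 1. In females Ngp was -2.44 and Mmp9 2.26, and in November Ngp was -2.93. Ngp was -0.41 with a pseudocount of 0.1, and with one of 5 Mmp8 was 0.018 and Mmp9 0.25. Without FF 2 and FF 4 Ngp was -0.84 and Mmp9 0.048. Leaving out a library gave -0.61 to 1.39 for Ngp, -0.77 to 0.072 for Mmp8, -1.40 to 0.51 for Mmp9, -3.22 to -0.79 for Camp and -4.64 to -1.84 for S100a8. The cause of these changes was not tested. Without read counts, a level near 0 cannot be told from an undetected transcript.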

Other observations

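The ratio of Camp to Ngp, both specific granule transcripts, was 16.1 in FF 1, 10.7 in FF 2 and FF 3, 1.67 in FFC 2 and 2.30 in FFC 3, the libraries in which both exceeded 1 FPKM. In FF 4, with Ngp at 0.654 FPKM, it was 3.65, and FFC 1 and FFC 4 had Camp listed at 0. This ratio was picked after its values were seen, and the difference between genotypes was not tested. FF 1, FF 2 and FF 3 carry November titles, and FF 4, FFC 2 and FFC 3 December titles. The ratio thus also split by month, and genotype and month cannot be told apart where both genes exceeded 1 FPKM. The ratio of S100a8 to Camp overlapped between the genotypes, at 2.64 to 22.2 over the FF libraries and at 4.35 and 2.16 in FFC 2 and FFC 3.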
